A study of Caenorhabditis elegans with 10 samples.

Results

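Open chromatin of young adult worms was compared with that of early embryos through the lists of ATAC-seq peaks that the study deposited for each stage. ATAC-seq reads accessible DNA with the Tn5 transposase, which cuts open chromatin and inserts sequencing adapters there, so that promoters and enhancers in use appear as narrow peaks. All nuclear peaks of both lists were taken, 15156 from young adults and 27689 from early embryos, out of 55893 peaks in the 3 stage lists of the series, and they rest on 6 of its 10 libraries. A young adult peak with no early embryo counterpart is called gained, and an early embryo peak with no young adult counterpart is called lost. Peaks were counterparts, and called shared, when they overlapped by at least 0.5 of either peak. The libraries came from whole organisms of the wild-type strain N2 kept at 20°C. Young adults were harvested 57 h after the egg lay, when most animals held hardly any eggs, and early embryos were freed from egg-laying adults by bleaching. Both stages had 3 independent biological replicates, as did larval stage 3 (L3), collected at 36 h, and 1 further library held Tn5-treated genomic DNA as input.

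The stages differ in nearly every tissue. The early embryo is a small set of dividing cells that are taking on their fates, whereas the young adult has finished tissues and a germline that holds a large part of its nuclei. In the C. elegans germline the X chromosome is largely silent and carries few genes of germline function, while autosomes carry most of them. In somatic cells of hermaphrodites the dosage compensation complex lowers transcription from both X chromosomes. Gene-dense centres and arms rich in repeats and fast-evolving gene families set the autosomes apart along their length. In whole animals, fewer cells with an open site and less opening per cell cannot be told apart.

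Each list was called on the pooled replicates of its stage, so no spread between replicates exists for any count, and no difference between stages was tested. According to the study's depth table early embryos were sequenced most deeply and L3 least. A site absent from a list may have been too faint to call there. Shares of peaks carry exact (Clopper-Pearson) 95% intervals, which cover counting error only. The fold enrichment of a peak is the authors' ratio to local background within the same pooled library. It served to rank peaks within a list, of 15159 young adult and 27694 early embryo peaks with the mitochondrial ones included, and to cut lists in an alternative. Its median was 2.77 in young adults and 2.09 in early embryos, and its highest value 21.8 and 12.5. Fold enrichments and ranks of the 2 lists, where printed side by side, are therefore not on a common scale. To set aside list length, comparisons were repeated with the 13040 peaks of highest −log10 q in each list, the length of the L3 list. This limit fell at a −log10 q of 15.4 in young adults and 40.5 in early embryos. After the mitochondrial peaks were set aside, 13037 young adult and 13035 early embryo peaks remained, called the equal length lists below.

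A set of 3 regions that the study cloned for reporter tests shows the kinds of peak met here. The genome-matching parts of the cloning primers, which amplify each region with some flanking sequence, are printed to identify them, 5′ to 3′, without the cloning tails. The dcs-1 region on chromosome V was open in the young adult list only. The tcc-1 region on chromosome V was shared and ranked higher within the young adult list. The mltn-12 region on chromosome IV was shared and had no L3 peak. The study chose these regions on the same samples, so their patterns are not independent evidence.
dcs-1 forward: tttttaagggaatttggctttt
dcs-1 reverse: caagtttcgcacaatagtaccg
tcc-1 forward: agagaaacctggcccaaaac
tcc-1 reverse: cacatttttccggggattt
mltn-12 forward: tgatcttcctgattctcctcttg
mltn-12 reverse: agactcgacacgaaggatcaa

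Of the 15156 young adult peaks, 4291 were gained (28.3%, interval 27.6% to 29.0%), and of the 27689 early embryo peaks, 16337 were lost (59.0%, 58.4% to 59.6%). Gained peaks covered 1.18 Mb, 25.0% of the base pairs in the young adult list, and lost peaks covered 3.91 Mb, 54.0% of those in the early embryo list. In the equal length lists the counts came close together, with 6269 gained (48.1%) and 6146 lost peaks (47.1%), which equal length brings about by construction. Most sites without a counterpart stood clear of any peak of the other stage. Only 257 gained peaks (5.99%) touched an early embryo peak without reaching the overlap rule, 1207 (28.1%) lay up to 500 bp from one, and 512 (11.9%) lay more than 5 kb away. Lost peaks stood further off, with 415 (2.54%) touching a young adult peak, 3255 (19.9%) up to 500 bp away and 4400 (26.9%) more than 5 kb away. The median gap was 1091 bp for gained and 2095 bp for lost peaks. At equal length these medians were 2316 bp for gained and 2542.5 bp for lost peaks.

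Gained and lost peaks were weak and narrow within their own lists. Gained peaks had a median width of 258 bp and a median fold enrichment of 2.41, against 298 bp and 2.94 for shared young adult peaks. Lost peaks had a median width of 223 bp and a median fold enrichment of 1.97, against 272 bp and 2.41 for shared early embryo peaks. Among the strongest 20% of the young adult list by fold enrichment 9.99% were gained, and among the weakest 20% it was 45.3%. The strongest 20% of the early embryo list had 29.4% of its peaks lost and the weakest 20% had 75.6%. Many peaks adjoined a neighbour of the same list. This held for 27.0% of gained and 27.5% of shared young adult peaks, and for 18.7% of lost and 30.4% of shared early embryo peaks. With adjoining peaks joined, 3416 intervals were gained (26.6%) and 14363 lost (59.6%). A total of 660 young adult peaks, 6.07% of the shared ones, had more than 1 early embryo counterpart, and 209 early embryo peaks (1.84%) had more than 1 young adult counterpart.

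Chromosome V had the highest and chromosome X the lowest share of gained peaks. On V 837 of 2678 young adult peaks were gained (31.3%, 29.5% to 33.0%), and on X 727 of 2809 (25.9%, 24.3% to 27.5%). The other chromosomes lay between, at 27.8% on I, 28.0% on both II and III and 29.0% on IV, and the intervals of these 4 overlap with each other and with those of V and X. The intervals of V and X lie apart. In the equal length lists the span widened, with 53.4% (51.3% to 55.4%) gained on V, 42.5% (40.5% to 44.5%) on X, and 47.1% to 49.8% on the other autosomes.

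Lost peaks followed another order. Chromosomes X and II lost the largest shares, 3528 of 5690 early embryo peaks on X (62.0%, 60.7% to 63.3%) and 2936 of 4757 on II (61.7%, 60.3% to 63.1%), and their intervals overlap. Chromosome IV lost the smallest share, 2250 of 4047 (55.6%, 54.1% to 57.1%), next to I at 56.6% and III at 57.5%, while V lay at 59.2%. Relative to chromosome length, X held 41.0 gained peaks per Mb of chromosome, against 43.2 per Mb over the autosomes, and 199 lost peaks per Mb, against 155 over the autosomes. Peaks of any kind were also denser on X. The young adult list had 159 per Mb on X and 150 over the autosomes, and the early embryo list 321 and 267. In the equal length lists II (51.0%) and X (50.0%) again stood above the other chromosomes, which lost 44.2% to 46.6%. On II the high share of losses went with a share of gains near that of all chromosomes in both sets of lists.

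**Figure D1:**
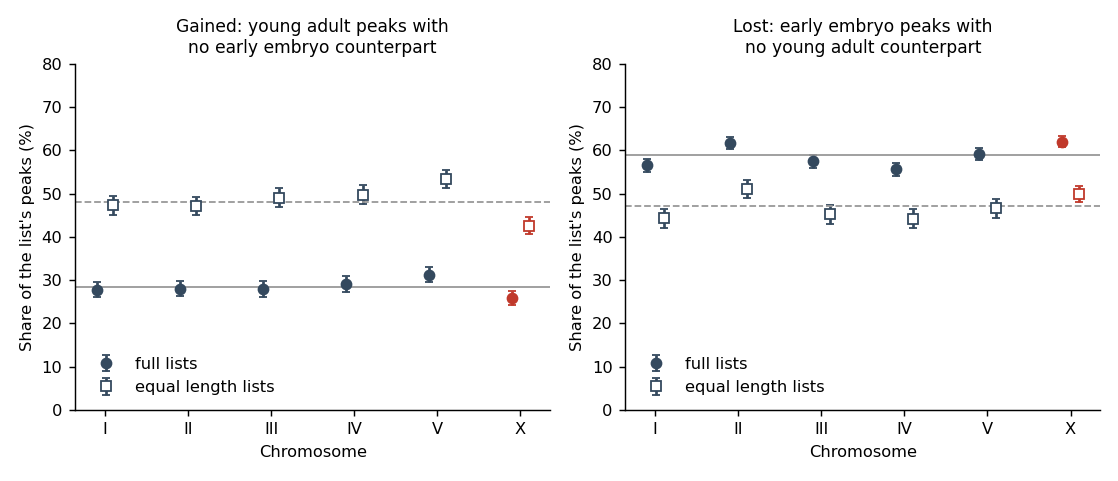
Share of young adult peaks gained (left) and of early embryo peaks lost (right) on each chromosome, in percent, with exact 95% intervals for counting error as bars. Filled circles are the full lists and open squares the equal length lists, red marks X, and grey lines give the share over all chromosomes. Gains were highest on V (31.3%) and lowest on X (25.9%), and losses were highest on X (62.0%) and II (61.7%).

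The X chromosome differed from the autosomes in both directions. On X 25.9% of young adult peaks were gained, against 28.9% (28.1% to 29.7%) on the autosomes, a difference of -2.98 percentage points. On X 62.0% of early embryo peaks were lost, against 58.2% (57.6% to 58.9%) on the autosomes, a difference of 3.78 percentage points. The equal length lists gave -6.84 points for gains and 3.60 points for losses, and the same lists cut by fold enrichment gave -5.61 and 3.31 points. No single autosome fell below X in gains in any of these lists, since the lowest autosome stood at 27.8% in the full lists, 47.1% in the equal length lists and 46.4% in those cut by fold enrichment. For losses II stood at 61.7% beside 62.0% on X in the full lists, and at 51.0% beside 50.0% in the equal length lists. X took 16.9% of gained but 19.2% of shared young adult peaks, and 21.6% of lost but 19.0% of shared early embryo peaks.

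Since strong peaks are shared more often, the X and autosome shares were also set side by side among peaks of like rank. In the full lists the lower share of gains on X was seen mainly among strong peaks. In the strongest 20% of the young adult list 38 of 595 X peaks (6.39%, 4.56% to 8.66%) were gained, against 265 of 2437 autosomal peaks (10.9%, 9.67% to 12.2%). In the next 20% of the list 20.7% of X peaks were gained (17.5% to 24.2%), against 25.9% (24.2% to 27.7%) on the autosomes. The intervals of X and autosomes just overlap in this second class. They also overlap in the 3 weaker classes, and in the weakest X stood at 46.3% and the autosomes at 45.1%. In the equal length lists X lay lower in all 5 classes, by -7.29 to -2.27 points. Losses on X exceeded those on the autosomes in the weaker classes instead. In the strongest 20% of the early embryo list X and the autosomes lost like shares, 30.3% (27.8% to 32.9%) on X and 29.1% (27.8% to 30.5%) on the autosomes. In the next class X lost 60.7% and the autosomes 51.5%, and in the middle class X lost 69.6% and the autosomes 63.0%. X also stood higher in the remaining classes, by 3.89 points in the next to weakest, where the intervals just overlap, and by 4.76 points in the weakest. At equal length the differences in losses were -0.07 points in the strongest class, 8.59, 10.4 and 8.08 points in the next 3 and 2.43 points in the weakest.

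**Figure D2:**
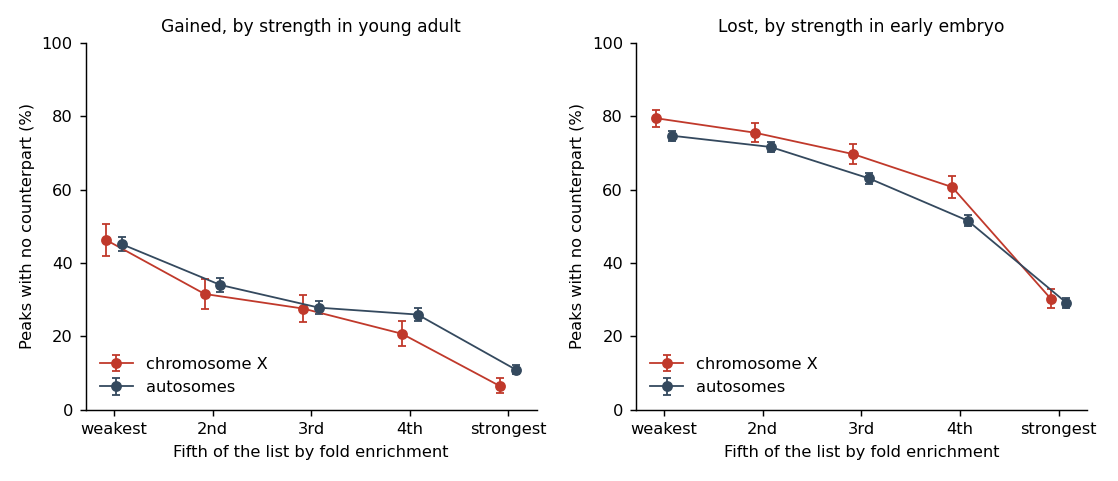
Share of peaks with no counterpart in the other stage, in percent, for chromosome X (red) and the autosomes (dark blue) in 5 equal classes of the young adult list (left, gained) and the early embryo list (right, lost) ranked by fold enrichment. Bars are exact 95% intervals for counting error. In the strongest class X gained 6.39% and the autosomes 10.9%, while losses had overlapping intervals there and were 9.17 points higher on X in the next class.

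Of the gained peaks in the strongest 20% of the young adult list, 73.9% had an L3 counterpart and 87.5% lay on autosomes. In this class 26.1% of gained but 4.21% of shared peaks lacked an L3 counterpart, and 2437 of all 3032 peaks were autosomal. The 8 gained peaks with the highest fold enrichment ranked 270 to 522 in the young adult list and were 302 to 722 bp wide. They lay on chromosomes II (1), III (3), IV (1) and V (3). An L3 counterpart was found for 7 of them. The highest was chrII:12878618-12879057 (ce10), with a fold enrichment of 10.6 and 9.94 kb from the nearest early embryo peak. The second, chrIII:11689280-11689665, had 9.90 and stood 7.71 kb away. The one without an L3 counterpart was chrV:20088321-20088925, the dcs-1 region whose primers are printed above. It was 605 bp wide, ranked 427 with a fold enrichment of 9.42, and its nearest early embryo peak was 13.1 kb away. dcs-1 encodes the scavenger decapping enzyme that clears cap remnants of decayed mRNA. At the other end, chrIII:3271505-3272226 had an early embryo peak 0.339 kb away, and chrV:5330016-5330588 touched one by less than the rule asks.

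Of the lost peaks in the strongest 20% of the early embryo list, 75.1% had no L3 counterpart, against 86.3% of all lost peaks. Of the 8 with the highest fold enrichment, ranks 126 to 367 in the early embryo list, 6 had none, near that share. Of these 8, 4 lay on chromosome II, which held 18.0% of all lost peaks. The highest, chrII:429590-430062, was 473 bp wide with a fold enrichment of 7.96, and the nearest young adult peak was 7.33 kb off. Next was chrIII:8604988-8605397, with 7.35 and the nearest young adult peak 23.0 kb off. The only one on X was chrX:16882537-16883001, with 6.61. The pair still seen in L3 were chrII:868281-868585, with 7.07, and chrIV:3363842-3364085, with 6.62, and both had a young adult peak nearby, at 1.64 kb and 2.35 kb. No gene is named for these regions because no annotation of ce10 was used here.

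Each autosome was cut into 3 equal lengths, and the central one was set against the outer ones. Gains were somewhat more frequent in the centres, at 30.7% (29.2% to 32.1%) against 28.0% (27.0% to 29.0%) in the outer parts. Chromosome V had the largest such gap, with 34.4% in its centre and 29.6% outside, and III the smallest, with 28.2% and 27.8%. Losses showed no such gap over the autosomes together, at 58.2% in both parts, but single chromosomes went both ways. On III the centre lost more (60.7%, against 55.6% outside), and on I (54.5% and 57.5%) and V (57.2% and 60.1%) it lost less. At equal length the centres of the autosomes gained 50.9% and the outer parts 48.6%, with overlapping intervals, and the gap on V was gone, at 53.1% in its centre and 53.5% outside.

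In blocks of 500 kb with at least 20 peaks, the gained share ran from 12.9% to 51.2% with a median of 27.6% over 202 blocks. The lost share ran from 39.8% to 76.9% with a median of 58.5% over 203 blocks. The highest gains were at 13.5 to 14 Mb of chromosome I (41 of 80 peaks, 51.2%), at 10.5 to 11 Mb of V (41 of 82, 50.0%) and at 5.5 to 6 Mb of V (39 of 82, 47.6%). The block on I had only 3 of its 41 gained peaks in L3, whereas the block at 5.5 to 6 Mb of V had 18 of 39. The highest losses all lay on the right arm of V, at 19 to 19.5 Mb (70 of 91, 76.9%), 17 to 17.5 Mb (79 of 103, 76.7%) and 16 to 16.5 Mb (81 of 107, 75.7%). Young adult peaks numbered 37, 28 and 37 in these same blocks. Intervals of single blocks are wide, at 39.8% to 62.6% for the highest gain and 66.9% to 85.1% for the highest loss.

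Gained and lost peaks also came in stretches, meaning consecutive peaks of 1 list that all lacked a counterpart in the other stage. Peaks of the other stage that are no counterparts may lie within a stretch. The longest lost stretch held 24 consecutive early embryo peaks over 41.0 kb, chrIV:3753380-3794353, with fold enrichments of 1.47 to 3.27 and an L3 counterpart for 4 of them. Others held 23 peaks over 36.5 kb at chrI:13954932-13991444, and 20 peaks at chrII:2013174-2103147, where 1 had an L3 counterpart. Further lost stretches on I, II and III also held 20 peaks, and the one named is the widest of them. Gained stretches were shorter, and 29 of 2841 had at least 5 peaks, against 894 of 5975 lost ones. The early embryo list is longer, and 59.0% of its peaks were lost, against 28.3% of young adult peaks gained. A larger share without counterparts gives longer stretches by itself, and its part in these counts was not tested. The gained stretches with the most peaks lay on X. At chrX:5100925-5106730 the young adult list had 15 peaks in 5.81 kb that covered 4.21 kb of it, 11 of them adjoining a neighbour, and none had an L3 counterpart. Their fold enrichments were low, at 1.44 to 2.47. At chrX:3557099-3573342, 12 peaks lay over 16.2 kb with fold enrichments of 2.06 to 4.58 and again no L3 counterpart. The third, chrI:13756437-13813879, spread 11 peaks over 57.4 kb in the block of highest gain, with fold enrichments of 2.11 to 8.17. Most genes for piRNAs, the small RNAs that guard the germline against transposons, lie in a pair of domains on IV. The gained share was 30.1% from 5 to 7 Mb (24.1% to 36.7%) and 30.1% from 14 to 17 Mb (24.4% to 36.4%), against 28.8% over the rest of IV. The intervals of both domains include that value.

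Shared peaks kept their summits. Among 9794 pairs in which each peak was the other's only counterpart, the median distance between summits was 11 bp, the middle 50% of pairs lay between 5 and 23 bp, and 90% lay within 43 bp. Within 10 bp were 4667 pairs (47.7%), within 50 bp 9025 (92.1%), and 250 pairs had the same base as summit. The young adult summit had the higher coordinate in 4773 pairs and the lower in 4771, with a median signed distance of 0 bp. Distances depended on strength. The median was 9 bp in the strongest 20% of the young adult list and 15 bp in the weakest, and 9 bp and 18 bp in these classes of the early embryo list. X had a median of 12 bp and the autosomes 11 bp, and 45.0% of X pairs and 48.3% of autosomal pairs lay within 10 bp. Pairs with no L3 peak had a median of 12 bp, and pairs with L3 counterparts for both 11 bp. A total of 259 pairs (2.64%) had summits more than 100 bp apart, and these peaks were wide, with medians of 368 bp in young adults and 318 bp in early embryos, against 293 bp and 275 bp for the other pairs. Over 6287 pairs of the equal length lists the median was 10 bp.

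**Figure D3:**
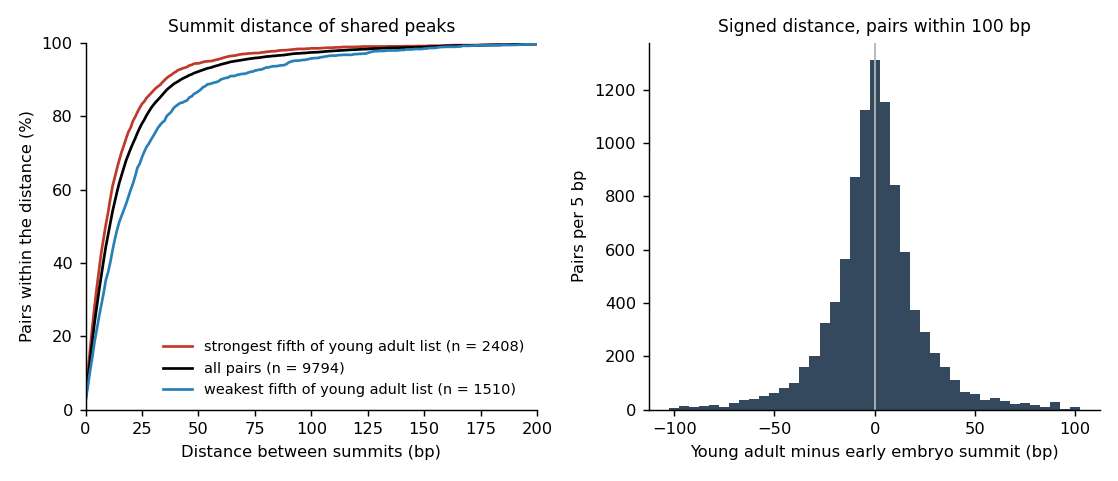
Left, share of one-to-one shared pairs (percent) whose summits lie within a given distance (bp), for all 9794 pairs and for the strongest and weakest 20% of the young adult list. Right, number of pairs per 5 bp of signed distance, young adult minus early embryo summit, for pairs within 100 bp. Medians were 11 bp over all pairs, 9 bp in the strongest and 15 bp in the weakest class, and the signed distances centre on 0.

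Shared peaks were slightly wider in young adults. The median width over the pairs was 294 bp in young adults and 277 bp in early embryos, and the median log2 ratio, young adult over early embryo, was 0.06, or 1.04 times. In 57.9% of pairs the young adult peak was wider and in 40.2% narrower. The middle 50% of log2 ratios ran from -0.13 to 0.32, so single pairs varied far more than the median moved. A young adult peak more than 1.5 times as wide was found in 1184 pairs (12.1%), and one narrower by that factor in 489 (4.99%). X pairs had a median log2 ratio of 0.01 and autosomal pairs 0.07, from 0.05 on II to 0.08 on I, with 51.3% of X pairs wider in young adults against 59.4% on the autosomes. At equal length the medians were -0.01 on X, where 51.5% of pairs were narrower in young adults, and 0.04 on the autosomes. Among pairs in the strongest 20% of both full lists, the medians were 0.01 over 384 X and 0.09 over 1321 autosomal pairs. Pairs in which neither peak adjoined a neighbour had 0.01 on X and 0.08 on the autosomes. Pairs with no L3 counterpart had 0.04 and those with L3 counterparts for both 0.06, and at equal length these were -0.03 and 0.04.

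Width went with rank. Pairs in the strongest 20% of the young adult list had a median log2 ratio of 0.17 and those in the weakest -0.04. By early embryo rank the order was opposite, with -0.03 in the strongest and 0.31 in the weakest class. In the strongest young adult class 72.8% of pairs were wider in young adults, and in the strongest early embryo class 54.8% were narrower in young adults. The classes were set by 1 of the lists compared, and the part of this and of depth in the widths was not tested.

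**Figure D4:**
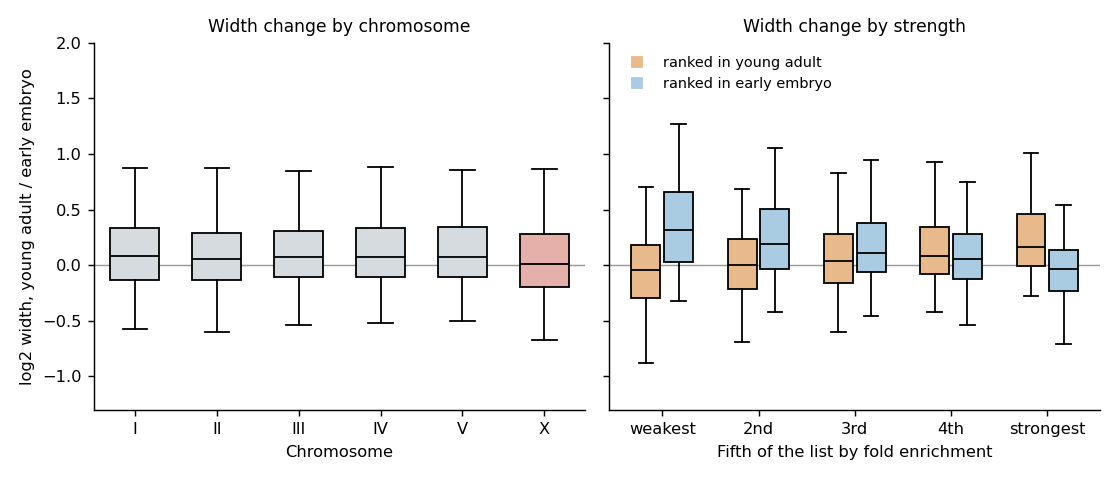
log2 ratio of peak widths, young adult over early embryo, in 9794 one-to-one pairs, by chromosome (left, X in red) and by class (20%) of each list ranked by fold enrichment (right, young adult rank in orange, early embryo rank in blue). Boxes give the median and the middle 50% of pairs, and whiskers the 5th and 95th percentiles. Medians lay at 0.01 on X and between 0.05 and 0.08 on the autosomes.

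Rank within the list was kept only in part. Spearman's rho between fold enrichments across the 9794 pairs was 0.57, a description across peaks that share their libraries. Of the 2408 pairs in the strongest 20% of the young adult list, 1705 (70.8%) were also in the strongest 20% of the early embryo list, and these make up 48.5% of the 3518 pairs in that early embryo class. At equal length the overlap was 55.8% of the young adult and 57.3% of the early embryo class, and rho was 0.48. The lists differ in length, so the classes hold different numbers of peaks. The 5 pairs with the largest rise in rank percentile toward young adults ranked 314 to 1770 there and 24414 to 27444 in early embryos. The largest rise was at chrII:5725004-5725484, with rank 1770 and fold enrichment 5.59 in young adults against rank 27444 and 1.41 in early embryos, and summits 1 bp apart. The strongest of the 5 in young adults was chrIII:12557735-12558484, with rank 314 and 10.2, against rank 24414 and 1.66. Its summits lay 282 bp apart, and the young adult peak was 750 bp wide against 265 bp. All 5 had an L3 counterpart, were wider in young adults and lay on autosomes. Of all 9794 pairs, 6872 had L3 counterparts for both peaks and 7906 lay on autosomes. Wider in young adults were 72.8% of pairs in the strongest young adult class and 77.8% in the weakest early embryo class, from which these 5 come. The 5 largest falls ranked 14524 to 15107 in young adults and 1395 to 1968 in early embryos, and all were narrower in young adults. Narrower were 54.7% of pairs in the weakest young adult class and 54.8% in the strongest early embryo class. The largest fall was at chrI:13850995-13851094, a peak of 100 bp with a fold enrichment of 1.54 in young adults against 423 bp and 4.54 in early embryos. The one on X, chrX:9089642-9089860, had rank 14644 in young adults against 1729 in early embryos and no L3 counterpart.

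Open sites shared by young adults and early embryos could still be missing from the stage between them. Of the shared peaks, 3146 of 10865 in young adults (29.0%, 28.1% to 29.8%) and 3266 of 11352 in early embryos (28.8%, 27.9% to 29.6%) had no L3 counterpart. Over all peaks the shares without an L3 counterpart were 38.1% in young adults and 62.7% in early embryos. In the equal length lists 1068 of 6768 shared young adult peaks (15.8%) and 1062 of 6889 shared early embryo peaks (15.4%) lacked one, beside 32.2% and 45.3% of all peaks of these lists. Shared peaks without an L3 counterpart were weaker than those with one, and in early embryos close to the list at large, whose median fold enrichment was 2.09. Shared peaks without L3 had a median fold enrichment of 2.31 in young adults and 2.01 in early embryos, against 3.42 and 2.66 for shared peaks with L3. Their median widths were 260 bp and 244 bp, against 318 bp and 285 bp. In the strongest 20% of the young adult list 115 of 2729 shared peaks (4.21%) had no L3 counterpart, and in the weakest 1065 of 1656 (64.3%). The L3 library was the shallowest, and its part in these absences was not tested.

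On X fewer shared peaks lacked L3. In the young adult list this was not particular to shared peaks, since 55.6% of gained peaks on X and 62.4% on the autosomes lacked one. Lost early embryo peaks lacked one in 87.0% on X and 86.1% on the autosomes. Among shared young adult peaks, 496 of 2082 on X (23.8%, 22.0% to 25.7%) lacked one, against 30.2% (29.2% to 31.1%) on the autosomes. Among shared early embryo peaks it was 24.0% on X against 29.9%. Every autosome lay above X, from 28.9% on IV to 31.4% on V in young adults. Within classes of like rank in the young adult list the difference of X from the autosomes ran from -8.18 to -1.91 points in all but the weakest, where it was 1.41. Within those of the early embryo list it ran from -11.5 to 0.70 points. At equal length it was -4.82 to -2.21 points in the 3 strongest young adult classes and 0.29 and 1.21 in the others, and -6.75 to 1.88 points over the early embryo classes. Over all ranks at equal length X had 13.3% (11.6% to 15.2%) and the autosomes 16.4% (15.4% to 17.4%) in young adults, and in early embryos 13.6% (11.9% to 15.5%) and 15.9% (14.9% to 16.9%), where the intervals overlap.

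**Figure D5:**
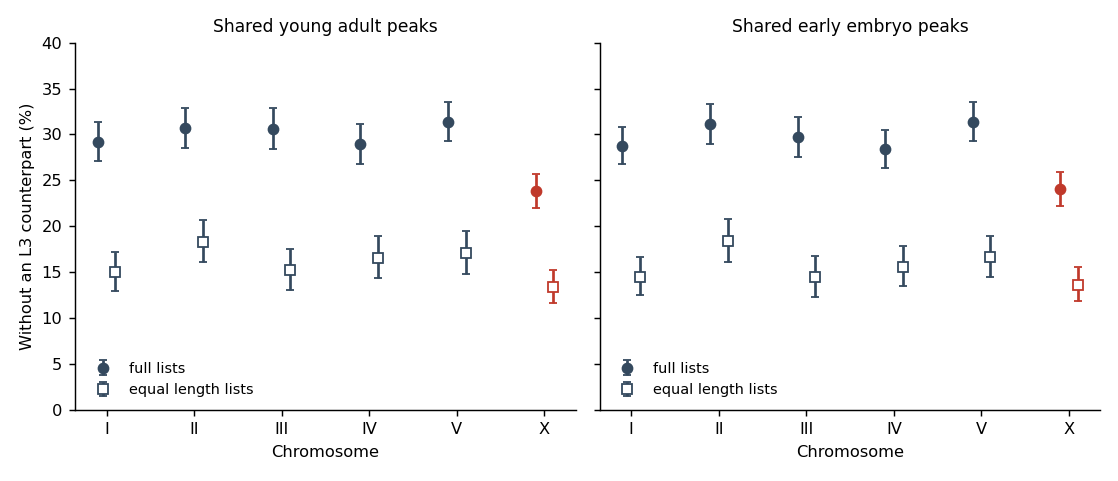
Share of shared young adult peaks (left) and shared early embryo peaks (right) with no L3 counterpart on each chromosome, in percent, with exact 95% intervals for counting error. Filled circles are the full lists, open squares the equal length lists, and red marks X. In the full lists X stood at 23.8% and 24.0%, below every autosome.

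Not all of these sites were near misses. Of the 3146 young adult peaks, 169 (5.37%) touched an L3 peak without reaching the overlap rule, 777 (24.7%) lay up to 500 bp from one and 810 (25.7%) more than 5 kb away. As one-to-one pairs, 2898 of 9794 had no L3 counterpart of either peak, and in 993 of them both peaks were among the 13040 of highest −log10 q. In the strongest 20% of their list stood 105 by young adult rank and 364 by early embryo rank. The 8 strongest by young adult fold enrichment ranked 506 to 1126 in young adults and 1922 to 11595 in early embryos. All 8 lay on autosomes and were wider in young adults, beside 85.7% autosomal and 92.4% wider among the 105 pairs. Of the 8, 6 had summits within 15 bp of each other, and 1 touched an L3 peak. The strongest was chrI:3152339-3152812, with a fold enrichment of 8.92 in young adults against 2.42 in early embryos, the same summit base in both, and the nearest L3 peak 9.01 kb away. The 2 with the highest early embryo ranks were chrV:11390906-11391369, with rank 986 in young adults and 1922 in early embryos, and chrI:9988391-9989408, with 1031 and 2391. As percentiles of their lists these ranks were 93.5 and 93.1 on V, and 93.2 and 91.4 on I. The region on I was also the widest of the 8, at 1018 bp in young adults and 645 bp in early embryos.

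Gained peaks lacked an L3 counterpart less often than lost peaks, and over the whole lists young adult peaks likewise lacked one less often than early embryo peaks. Of the 4291 gained peaks 1663 had an L3 counterpart and 2628 (61.2%, 59.8% to 62.7%) did not, whereas 14095 of 16337 lost peaks (86.3%, 85.7% to 86.8%) had none, beside 38.1% of all young adult and 62.7% of all early embryo peaks. At equal length 50.0% of gained and 78.8% of lost peaks had no L3 counterpart, beside 32.2% and 45.3% of all peaks. Within the young adult list the share of gained peaks with an L3 counterpart was 73.9% in the strongest and 21.0% in the weakest 20%, and for lost peaks of the early embryo list it was 24.9% and 7.65%. Of the chromosomes, X had the largest share of gains open in L3, with 55.6% (51.9% to 59.2%) lacking a counterpart there against 62.4% (60.8% to 64.0%) on the autosomes. This was not particular to gains, since 23.8% of shared young adult peaks on X lacked one, against 30.2% on the autosomes. Chromosome I had the largest share of gains with no L3 counterpart, at 68.6% (65.0% to 72.0%). For lost peaks the chromosomes lay between 84.9% on III and 87.0% on X. Gained peaks with L3 had a median fold enrichment of 2.77 and those without 2.24.

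The loci for which gene names are at hand showed all of these patterns. Of the 13 regions that the study tested as enhancers and chose on these samples, 5 had peaks in both stages, 6 in early embryos only, 1 (dcs-1) in young adults only and 1 (nhr-25) in neither. At tcc-1, which encodes a coiled-coil transmembrane protein, the young adult peak ranked 3 and the early embryo peak 3864. Their summits were 58 bp apart, and the young adult peak was 547 bp wide against 367 bp. The tcc-1 peak of the L3 list ranked 5 there, so a high rank was not particular to young adults. At hlh-11, a basic helix-loop-helix transcription factor gene on III, both peaks of the region stood far higher in young adults, at ranks 180 and 883 against 10389 and 14920. The summits there lay 10 bp and 59 bp apart. Both hlh-11 peaks stood high in the L3 list as well, at ranks 154 and 829. At mltn-12, named for its relation to the molting gene mlt-10, the summits were 2 bp apart, the widths were 338 bp in young adults and 279 bp in early embryos, and the nearest L3 peak was 6.28 kb away. ergo-1, which encodes an Argonaute of the small RNA pathways, had 3 adjoining young adult peaks over 2 early embryo peaks, all shared and none with an L3 counterpart. C54G6.2 on I went the other way in rank, at 4125 in young adults and 1078 in early embryos, with nearly equal widths of 228 bp and 230 bp.

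Lost sites among the tested regions covered a range of strengths. The best-10 peak, near a gene for a bestrophin-type chloride channel, ranked 1191 of the early embryo list. At K12C11.3 the 3 early embryo peaks had fold enrichments of 1.87 to 2.16, and at mlt-8, gei-13 and swip-10 the early embryo peaks were weak as well, at 1.66 to 2.34, and had L3 counterparts. Across the 8 plotted windows of the authors' code, 15 of 39 young adult peaks were gained and 34 of 61 early embryo peaks were lost, beside 28.3% and 59.0% over all peaks. Around daf-12, the nuclear hormone receptor gene that times larval development, 5 of 13 young adult peaks were gained, and the 7 one-to-one pairs had summits 2 to 46 bp apart. At kin-1, for the catalytic subunit of protein kinase A, 5 of 12 young adult peaks were gained and 3 of 11 early embryo peaks lost. At cav-1, for caveolin, 1 of 3 young adult peaks was gained and 4 of 6 early embryo peaks were lost. Its shared pairs had summits 7 bp and 10 bp apart while their ranks were 9247 and 7939 in young adults, against 979 and 435 in early embryos.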

How the data were processed

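Whole worms (N2) were profiled by ATAC-seq in 3 replicates each of young adults, early embryos and L3, with 1 input library. Per the submitters' processing notes and the study's methods, the authors aligned paired reads to ce10 with Bowtie2 2.1.0, removed duplicates with Picard, took peaks from MACS under a q limit of 0.05, and masked input peaks and blacklisted regions. They favoured peaks seen across replicates, so a site open in few replicates may be absent from a list. They pooled replicates into 1 list per stage, which hides the spread between replicates, and split peaks between summits, which raises peak numbers. The deposited lists hold positions, summits, a score, a fold enrichment (a ratio to local background) and −log10 p and q. The deposited score equals 10 times −log10 q without decimals, with 1 exception among the early embryo peaks, and was not used. The authors' −log10 q served to shorten lists. Their fold served to rank peaks (equal values share a rank) and, in an alternative, to shorten lists. The −log10 p was not used. The lists hold no reads, so the depth behind a peak is unknown here. Mitochondrial peaks (3 in young adults, 5 in early embryos, 2 in L3) were set aside.

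Counterparts were found in Python 3.11.15 with numpy 2.4.6 and pandas 2.3.3, and intervals were computed with SciPy 1.17.1. Figures were drawn with matplotlib 3.10.9. Counts of gained and lost peaks were the same in bedtools 2.31.1, and the code was tested on simulated data. Chromosome length was the largest peak end in any list. No test was run, since each stage has 1 list.

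Peaks named are the 8 strongest gained, lost and shared without L3, the 5 largest rises and falls in rank percentile, the 3 highest blocks and longest stretches each way, the 13 regions the study tested as enhancers, and the windows its code plots. The members, lists and rules were chosen with earlier results of these data known. Of 13 gene names looked up in the WBcel235 table, 13 matched. Distances to genes were not analysed here. Alternatives were overlaps of 1 bp or 0.5 of both peaks, summits within 150 bp, equal lengths, the early embryo list cut to young adult length, −log10 q of at least 2 or 5, and joined neighbours.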

Additional observations from a re-analysis of the deposited data

How the results depend on the processing

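No paired analysis was possible because each stage was deposited as 1 list from pooled replicates, and for the same reason no replicate could be left out. The alternatives for position along the autosomes, for the span over chromosomes and for widths on X and the autosomes apart were chosen after seeing the data. The counts changed most where lists were shortened, which also raised the limit of strength. With the early embryo list cut to young adult length, 7324 peaks were gained and 7192 lost, the X minus autosome difference in gains was -6.40 points, the span of gained shares over chromosomes was 10.4 points, and 1558 young adult and 1546 early embryo shared peaks had no L3 counterpart. At equal length by −log10 q, the lost peaks were 6146, the X difference in gains -6.84 points, the span of gained shares 10.8 points, and the shared peaks without L3 1068 and 1062. At equal length by fold enrichment these were 6072, -5.61, 9.63, 1127 and 1122. The median summit distance was 10 bp in each of these settings. The median log2 width ratio was 0.0239 with the cut early embryo list, 0.0272 at equal length by −log10 q and 0.0273 by fold, 0.0671 with an overlap of 1 bp, 0.0694 with summits within 150 bp and 0.0401 with adjoining peaks joined. On X it turned to -0.0103 at equal length by −log10 q, and to -0.0154 by fold and with the cut list. The difference in losses between the central and outer parts of the autosomes, -0.03 points, turned to 0.49 with an overlap of 1 bp and to 0.26 with 0.5 of both peaks, and was -2.02 at equal length by fold. In all 9 alternatives X had smaller shares of gains than the autosomes (-6.84 to -2.74 points) and larger shares of losses (2.88 to 4.01 points). The causes were not tested. The near equality of gained and lost counts at equal length follows by construction. Summit distances are limited in part by the rule that defines shared peaks. Widths by class of rank, and the largest rises and falls, depend on ranks taken from the lists compared.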
